A study of Homo sapiens with 21 samples.

Results

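Accessible chromatin around the 7 LIM homeobox genes ISL1, ISL2, LHX2, LHX8, LHX9, LMX1A and LMX1B was followed by ATAC-seq in SK-N-BE(2), an established line of human neuroblastoma cells. In this assay a transposase, Tn5, places adapters for sequencing in accessible DNA, so more open sites collect more reads. A site belonged to a gene when the deposited annotation gave that gene as the nearest one, which need not be the gene that the site regulates. By this rule 218 of 367900 consensus sites were members, with 23 at ISL1, 10 at ISL2, 20 at LHX2, 23 at LHX8, 22 at LHX9, 78 at LMX1A and 42 at LMX1B. Of these 218 sites, 129 were annotated as intergenic, 77 as intronic, 7 as exonic, 3 as transcription termination sites and 2 as promoters. A low-count filter left 215 of them for testing and removed 1 site each of LHX9, LMX1A and LMX1B.

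Cells were transduced with lentiviral shRNAs and collected 72 h later, in 7 groups of 3 libraries. Control cells were compared with cells in which ARID1A was silenced (shARID1A.2 and shARID1A.4), ARID1B was silenced (shARID1B.2 and shARID1B.3), or both were silenced together by a combination of shRNAs (shARID1A/B.2.3 and shARID1A/B.4.2). All groups were of this 1 line with no other agent named, and the extent of the knockdown cannot be read from accessibility. The products of both genes are alternative DNA-binding subunits of BAF, a complex that uses ATP to move nucleosomes and open chromatin. The libraries held 16140029 to 44472230 reads in sites, and deeper libraries carry less counting error. The labels do not say whether the 3 libraries of a group came from separate cultures, so p-values measure the spread between these libraries, which may be partly technical. Sites near the starts of adrenergic neuroblastoma markers read from 2.43 CPM (counts per 1000000 reads, with the TMM-scaled total of the library as its depth) at TH to 43.9 at HAND2 in Control, with PHOX2A at 24.0, GATA3 at 15.6 and DBH at 10.3. Over 12310 promoter sites the Control median was 10.9 CPM and the lower quartile 2.79, so the TH site was a low one. The mesenchymal markers read from 7.63 CPM at FOSL1 to 52.7 at VIM. The nearest sites of the other lineage markers read 0.178 CPM for hepatocyte ALB, 1.26 for leukocyte PTPRC and 4.55 for keratinocyte KRT14, the last of these 7254 bases from the gene's start.

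LIM homeobox proteins carry a pair of zinc-binding LIM domains, which hold the cofactor LDB1 and its partners, and a homeodomain, which contacts DNA. Combinations of these factors set the identity of many neurons. ISL1 is required for sympathetic and motor neurons and belongs to the adrenergic core circuit of neuroblastoma together with HAND2 and GATA3. ISL2 acts in motor neurons and retinal ganglion cells, LHX2 in the eye, forebrain and hair follicle, LHX8 in cholinergic forebrain neurons and oocytes, and LHX9 in the gonad and spinal interneurons. LMX1A takes part in making midbrain dopaminergic neurons, and LMX1B in serotonergic neurons, the dorsal limb and the kidney.

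The reference sequences below are the central 300 bases of the site with the largest called fall, among sites of at least 1 CPM on average, at ISL1, ISL2, LHX8 and LMX1B, shown because large falls of the family lay there, and the RefSeq promoter of ISL1 (250 bases before to 50 after the start), shown because its site stayed open. All were read on the plus strand, the sites from GRCh38 and the promoter from the RefSeq table (GRCh38.p14). Capitals mark matches on either strand to 5 motifs. TAATTA is a core bound by many homeodomain proteins. CAGCTG is an E-box that reads the same on both strands. CATCTG is another E-box, which reads CAGATG on the opposite strand. AGATAA is bound by GATA factors and reads TTATCT on the opposite strand. TGANTCA is bound by AP-1 factors. None of these motifs overlapped another in the windows shown, and the LMX1B window held none.
ISL1 site, 197045 bases upstream, chr5:51185930-51186229: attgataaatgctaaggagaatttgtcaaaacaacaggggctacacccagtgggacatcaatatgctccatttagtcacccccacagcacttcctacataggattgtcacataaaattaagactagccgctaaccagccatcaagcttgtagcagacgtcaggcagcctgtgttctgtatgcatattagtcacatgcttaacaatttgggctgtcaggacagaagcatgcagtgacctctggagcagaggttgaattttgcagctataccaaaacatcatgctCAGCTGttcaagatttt
ISL2 site, 56715 bases downstream, chr15:76393372-76393671: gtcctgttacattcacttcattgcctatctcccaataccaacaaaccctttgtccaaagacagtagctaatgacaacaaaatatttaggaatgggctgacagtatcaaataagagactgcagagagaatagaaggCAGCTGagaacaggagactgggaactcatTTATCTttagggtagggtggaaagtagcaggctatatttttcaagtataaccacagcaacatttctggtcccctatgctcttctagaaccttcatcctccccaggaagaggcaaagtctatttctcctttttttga
LHX8 site, 54874 bases upstream, chr1:75079859-75080158: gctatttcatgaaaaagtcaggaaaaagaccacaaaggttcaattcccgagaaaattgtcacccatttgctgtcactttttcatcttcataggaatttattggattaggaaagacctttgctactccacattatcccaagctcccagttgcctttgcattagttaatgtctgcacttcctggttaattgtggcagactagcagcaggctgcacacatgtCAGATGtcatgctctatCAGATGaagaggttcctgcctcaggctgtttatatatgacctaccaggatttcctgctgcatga
LMX1B site, 53119 bases downstream, chr9:126667413-126667712: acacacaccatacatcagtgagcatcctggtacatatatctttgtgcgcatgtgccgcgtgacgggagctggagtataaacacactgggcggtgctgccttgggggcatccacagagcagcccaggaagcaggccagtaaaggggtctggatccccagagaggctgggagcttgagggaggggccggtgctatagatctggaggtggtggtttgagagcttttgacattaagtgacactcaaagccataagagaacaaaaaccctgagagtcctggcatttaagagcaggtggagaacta
ISL1 promoter, chr5:51383198-51383497: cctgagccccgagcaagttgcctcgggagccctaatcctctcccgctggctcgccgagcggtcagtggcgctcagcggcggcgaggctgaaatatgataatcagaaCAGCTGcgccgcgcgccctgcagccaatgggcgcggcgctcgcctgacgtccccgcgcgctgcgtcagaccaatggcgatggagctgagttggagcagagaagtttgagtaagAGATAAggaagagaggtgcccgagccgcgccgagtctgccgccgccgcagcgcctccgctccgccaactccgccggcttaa

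The central comparison asked which of these sites change when both subunits are silenced. In the average of the combinations, 30 of the 215 tested sites fell and 4 rose against Control at a false discovery rate (FDR) under 0.01. Every one of the 7 genes had at least 1 site that fell, namely 7 at LHX8, 7 at LMX1A, 6 at LMX1B, 5 at ISL1, 2 at ISL2, 2 at LHX9 and 1 at LHX2, while the 4 that rose were 2 of LMX1A and 1 each of ISL2 and LMX1B. Over all 357029 tested sites, 10.3% fell and 3.43% rose, against 14% and 1.86% of the members, and the median log2 change was -0.02 for the members and 0.03 for all sites. Depth bears on these shares. Among sites with a mean of at least 1 CPM, 23 of 123 member sites fell (18.7%), beside 16.5% of all such sites, and 4 rose, beside 6.2%. The log2 change of the 30 sites that fell ran from -2.31 to -0.41 with a median of -0.86, and 13 of them fell by at least 1, whereas the 4 rises ran from 0.55 to 0.78. With promoter sites setting the scale of the libraries instead, the median of all sites moved to -0.20, and 50 member sites (23.3%) fell, beside 15.9% of all sites, and 1 rose, so the balance of directions depends on the scaling. In a bulk sample, fewer cells with an open site and less opening per cell cannot be told apart.

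**Figure D1:**
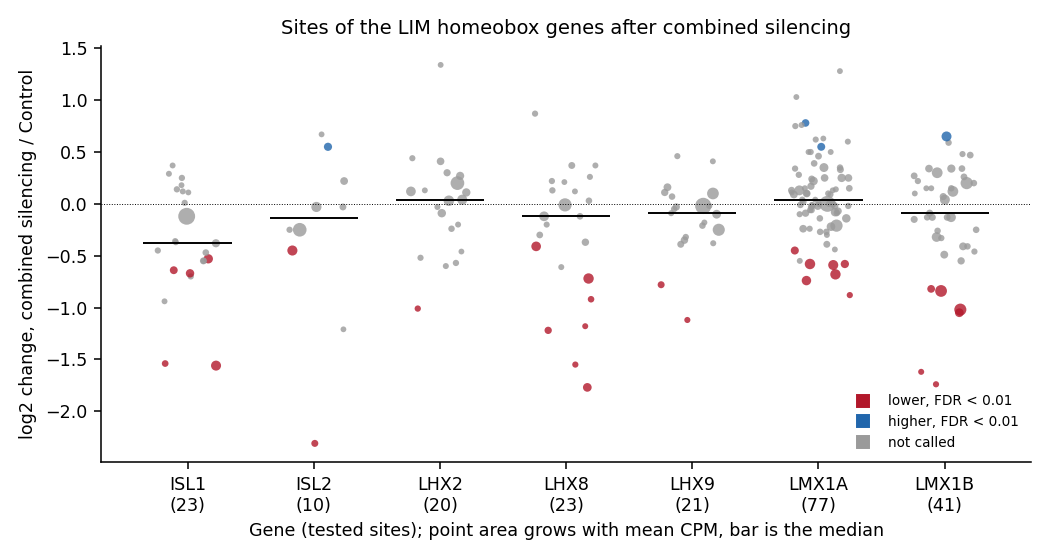
Log2 change of accessibility after combined silencing relative to Control (vertical axis) for the 215 tested sites of each gene (horizontal axis). Point area grows with mean CPM, the bar is the median, red sites fell and blue sites rose at an FDR under 0.01, and the red points reach from -0.41 to -2.31 while most large points lie near 0.

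Sites that fell lay within 10 kb of an annotated start site and beyond it, but none lay over a RefSeq promoter. Within 10 kb of the annotated transcription start site (TSS), 4 of 27 tested member sites fell and 1 rose, beside 8.72% and 12.1% of all sites in that range. Among these 4 were an ISL1 site 9041 bases upstream and an LMX1A site 1271 bases from a TSS internal to its RefSeq gene. The LMX1A call was lost in 12 of 17 alternatives. Farther away, 26 of 188 fell and 3 rose, beside 10.6% and 1.72% of all sites. The RefSeq table listed 10 promoter windows for the 7 genes, of which 9 overlapped a consensus site, in 8 different sites, the one at ISL1 named for ISL1-DT as described next. Of these 8 sites only the ISL2 promoter was called after combined silencing, and it rose, a call that was lost when the libraries were scaled on promoters (log2 0.32, FDR 0.102) and without Control replicate 1 (0.50, FDR 0.0249).

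ISL1 was open at its start and lost accessibility at remote sites. The annotation gives the start site of ISL1, its gene body and everything downstream to ISL1-DT (LOC642366), a divergent transcript that begins next to it, so the 23 member sites are all upstream, 5125 to 203054 bases from the TSS. The start site itself (chromosome 5, positions 51382644 to 51383968), which overlaps the ISL1 promoter printed above, is therefore no member, and it was looked up after the annotation had been seen. It read 36.3, 35 and 33.9 CPM in Control, 34.6, 38.4 and 34.2 with shARID1A/B.2.3, and 38.1, 37.5 and 40.9 with shARID1A/B.4.2. The former libraries overlapped Control and the latter lay above it, and the averaged log2 change of 0.09 (SE 0.08) did not pass the test (FDR 0.485). The next site, in intron 3 of ISL1, read 29.9 ± 2.87 CPM (SD, n = 3) in Control, with a log2 change of -0.07 (SE 0.08, FDR 0.588).

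The member site of ISL1 with the highest accessibility and the shortest distance (positions 51376699 to 51379299, in exon 2 of ISL1-DT, 5125 bases upstream) read 24.3, 23.3 and 22.8 CPM in Control. It read 19.1, 19.2 and 21 with shARID1A/B.2.3 and 22.7, 22.6 and 25.1 with shARID1A/B.4.2. The former libraries lay below Control and the latter overlapped it, and the averaged log2 change of -0.12 (SE 0.08) did not pass the test (FDR 0.307). Over the 21 libraries, the sites of other genes whose log2 CPM followed this site most closely were in XXYLT1 (Pearson r = 0.877), CLASP2 (0.875) and WDFY2 (0.873), among 181893 sites, a description over libraries that share their depth and group.

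The largest fall at ISL1 was 197045 bases upstream, in intergenic DNA (positions 51185631 to 51186528), the site whose centre is printed first above and holds 1 CAGCTG E-box. It read 10.5, 11 and 9.14 CPM in Control, 2.40, 2.51 and 2.24 with shARID1A/B.2.3, and 5.11, 4.69 and 5.15 with shARID1A/B.4.2. The groups did not overlap, and the averaged log2 change was -1.56 (SE 0.11, FDR 1.04e-22), at -2.09 for shARID1A/B.2.3 and -1.03 for shARID1A/B.4.2. Single silencing of ARID1A gave 4.53, 4.14 and 5.26 CPM with shARID1A.2 and 5.26, 5.45 and 3.95 with shARID1A.4, a mean log2 change of -1.09 (FDR 3.42e-14). With shARID1B.2 the libraries read 9.81, 8.58 and 9.94 CPM, overlapping Control, and with shARID1B.3 they read 6.45, 6.99 and 6.81. By itself shARID1B.3 was called lower, a call kept in 13 of 13 alternatives, and shARID1B.2 was not called. The averaged ARID1B change of -0.35 missed the threshold (FDR 0.0116), and the site was lower with ARID1A than with ARID1B silencing by a log2 difference of -0.74 (SE 0.09, FDR 4.96e-10).

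A smaller neighbouring site, 194864 bases upstream, read 2.36, 2.42 and 2.81 CPM in Control. It read 0.89, 1.02 and 0.57 with shARID1A/B.2.3 and 0.72, 0.83 and 1.07 with shARID1A/B.4.2, a fall of -1.54 (SE 0.18, FDR 1.82e-11) with no overlap. Unlike its neighbour, it fell with every single shRNA, from -0.85 with shARID1A.2 to -1.49 with shARID1B.3, though the call with shARID1A.2 was lost in 4 of 13 alternatives and that with shARID1B.2 in 2 of 13, and its ARID1A against ARID1B difference of 0.31 did not pass (FDR 0.325). The other 3 sites that fell were 157193 bases upstream (6.01 ± 0.422 CPM in Control, log2 -0.53, FDR 0.000118), 103379 bases upstream (4.64 ± 0.478 CPM, -0.67, FDR 1.69e-05) and 9041 bases upstream (3.51 ± 0.250 CPM, -0.64, FDR 0.00019). These 3 were not called in the averages over the ARID1A or the ARID1B shRNAs, where their log2 values ran from -0.18 to -0.40. Against the 4 single-shRNA groups, the sites 157193 and 9041 bases upstream were lower by -0.30 (FDR 0.00556) and -0.38 (FDR 0.00635), calls that were each lost in 12 of 26 alternatives.

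A further intergenic ISL1 site, 187948 bases upstream (chromosome 5, positions 51194044 to 51196308), was the 1 member site called with ARID1B silencing and not in the averaged combinations, and it was chosen after its values had been seen. It read 3.22, 3.00 and 3.01 CPM in Control, 4.55, 4.12 and 4.88 with shARID1B.2, and 4.33, 4.87 and 4.79 with shARID1B.3. All 6 ARID1B libraries lay above Control, an averaged log2 rise of 0.58 (SE 0.13, FDR 0.000638), though shARID1B.2 by itself did not pass. The 6 ARID1A libraries, at 2.38 to 2.92 CPM, lay below Control with a value of -0.23 that did not pass (FDR 0.347). The difference of -0.81 between ARID1A and ARID1B silencing did pass (SE 0.11, FDR 5.53e-09). With shARID1A/B.2.3 the site read 1.97, 1.72 and 1.76 CPM and fell by -0.76 (FDR 0.000138), and with shARID1A/B.4.2 it read 2.78, 2.99 and 3.43, overlapping Control (0.00, FDR 0.994).

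**Figure D2:**
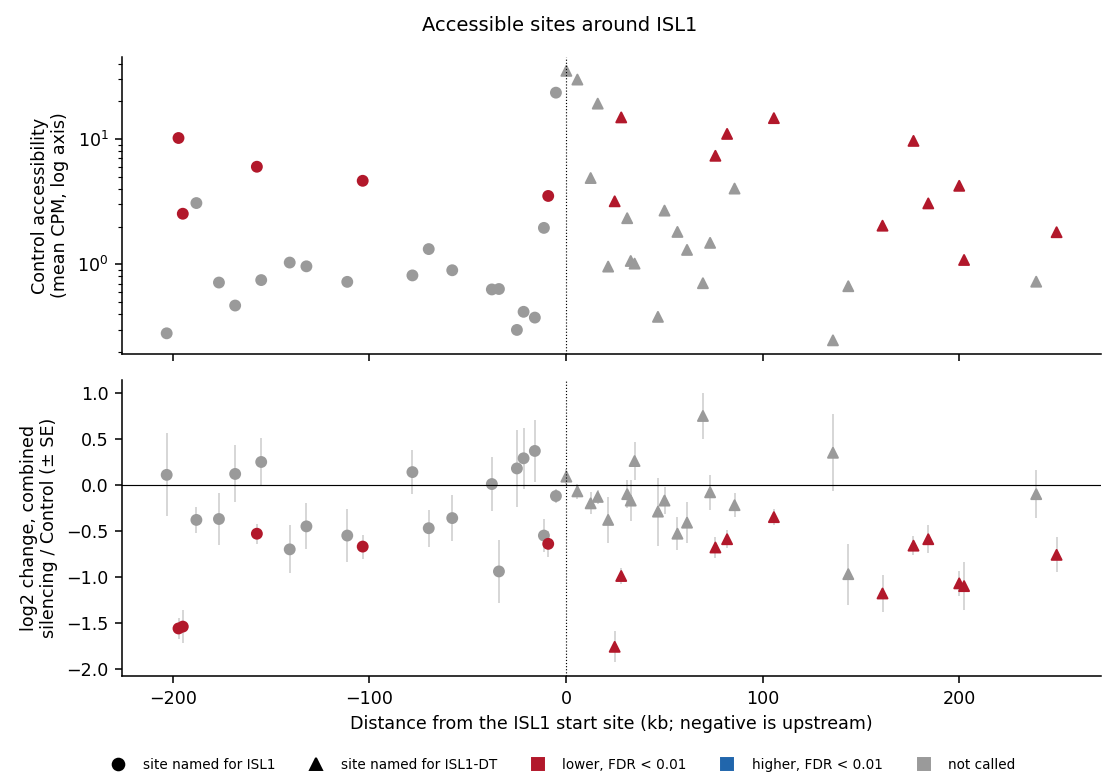
Accessibility in Control (top, mean CPM on a log axis) and log2 change after combined silencing with its SE (bottom) against distance from the ISL1 start site in kb. Circles are the 23 member sites and triangles the 29 tested sites named for ISL1-DT within 250 kb, of which 5 and 11 fell at an FDR under 0.01 (red), none of them the tall sites at the start.

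The downstream side, named for ISL1-DT and described here only to complete the locus, held falls as well. Within 250 kb of the ISL1 start, 11 of 29 tested sites named for ISL1-DT fell, with log2 changes from -1.76 to -0.35. The site at positions 51407648 to 51408102 read 3.18 ± 0.291 CPM in Control, 0.934 ± 0.186 with shARID1A/B.2.3 and 0.930 ± 0.281 with shARID1A/B.4.2 (log2 -1.76, SE 0.17, FDR 6.67e-15). The taller site at 51409871 to 51412543 went from 14.9 ± 0.670 to 5.97 ± 0.0797 and 9.46 ± 0.497 CPM, a log2 change of -0.99 (SE 0.09, FDR 1.73e-16).

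ISL2 rose at its promoter and fell at a remote site. The promoter site (chromosome 15, positions 76336358 to 76336887) read 2.26, 2.47 and 2.73 CPM in Control. It read 3.71, 3.18 and 4.18 with shARID1A/B.2.3 and 4.12, 3.59 and 3.39 with shARID1A/B.4.2, all above Control, with a log2 change of 0.55 (SE 0.14, FDR 0.002). Each combination passed by itself, but shARID1A/B.2.3 lost its call in 8 of 14 alternatives and shARID1A/B.4.2 in 9 of 14. Of the single shRNAs only shARID1B.2 passed (0.73, FDR 0.00147), and the others ran from -0.05 with shARID1A.4 to 0.42 with shARID1A.2. The site of highest accessibility, in intron 5 of ISL2, read 15.2 ± 2.33 CPM in Control, with a log2 value of -0.25 that did not pass (FDR 0.056).

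The steepest fall of the family was at a site nearest to ISL2 but inside intron 27 of SCAPER (positions 76392831 to 76394211), 56715 bases from the ISL2 start. Its Control libraries read 4.19, 3.45 and 4.29 CPM, against 0.56, 0.98 and 0.48 with shARID1A/B.2.3 and 1.08, 0.78 and 0.79 with shARID1A/B.4.2. This is a log2 change of -2.31 (SE 0.17, FDR 2.68e-20). All 4 single shRNAs lowered it too, to 1.32 ± 0.389, 1.25 ± 0.143, 2.35 ± 0.239 and 1.25 ± 0.383 CPM with shARID1A.2, shARID1A.4, shARID1B.2 and shARID1B.3. The average of the combinations was lower than that of the single shRNAs by -0.90 (SE 0.16, FDR 4.93e-06). A further ISL2 site, 9841 bases downstream, fell by -0.45 in the combinations, with -0.16 and -0.02 in the ARID1A and ARID1B averages, neither of which was called.

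LHX2 had 1 site that fell after combined silencing, and its start site rose with ARID1A silencing. The site over exon 1 (chromosome 9, positions 124010891 to 124013057) read 12.8, 10.6 and 13.2 CPM in Control. It read 15.7, 14.8 and 14.9 with shARID1A.2 and 18.0, 17.0 and 17.0 with shARID1A.4, all above Control, whereas shARID1B.2 (12.3 ± 0.703) and shARID1B.3 (12.6 ± 1.85) overlapped it. The ARID1A average rose by 0.41 (SE 0.09, FDR 0.000852) and exceeded the ARID1B average by 0.38 (SE 0.08, FDR 0.000138), while the combinations stood at 0.20 and did not pass (FDR 0.134). Tested by itself, shARID1A.4 passed and shARID1A.2 did not. The averaged ARID1A rise was lost when libraries were scaled on promoters and without Control replicate 2. The single LHX2 site that fell after combined silencing lay 111075 bases downstream, at 0.837 CPM on average (log2 -1.01).

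LHX9, the closest relative of LHX2, had 2 sites that fell, both remote. Its tallest site, 6104 bases upstream of the annotated TSS and over one of the RefSeq starts, read 20.9 ± 1.41 CPM in Control, 20.3 ± 0.827 with shARID1A/B.2.3 and 21.1 ± 0.674 with shARID1A/B.4.2 (log2 -0.02, FDR 0.919). The site over the other start read 11.3 ± 0.632 CPM in Control, and neither its log2 value of -0.25 (FDR 0.0497) nor that of the site nearest to the TSS, in intron 1, at 0.10 (FDR 0.554), passed. Those that fell were 101371 (log2 -0.78) and 113662 bases downstream (-1.12). The former fell in the ARID1A average (-0.76, FDR 0.000829) and in the ARID1B average (-0.70, FDR 0.00183) as well.

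LHX8 had the largest share of sites that fell, 7 of 23 (30.4%), spread from 197437 bases upstream to 99300 bases downstream, the last of them in intron 9 of SLC44A5. The site in intron 1 of LHX8, nearest to the TSS and the tallest, read 12.7 ± 0.542 CPM in Control, 12.2 ± 1.44 with shARID1A/B.2.3 and 12.9 ± 0.501 with shARID1A/B.4.2 (log2 -0.01, FDR 0.947). The strongest fall was at the site 54874 bases upstream (chromosome 1, positions 75079608 to 75080409), whose printed centre holds the CATCTG E-box 2 times. Control read 5.82, 7.64 and 5.97 CPM, shARID1A/B.2.3 read 0.95, 1.53 and 0.75, and shARID1A/B.4.2 read 3.45, 3.08 and 2.92. The averaged log2 change was -1.77 (SE 0.13, FDR 1.43e-20).

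At that LHX8 site the 2 shRNAs of each gene gave different values. Libraries of shARID1A.2 read 2.94, 3.17 and 2.96 CPM, below all of Control, and those of shARID1A.4 read 6.09, 6.61 and 5.26, overlapping Control. Those of shARID1B.3 read 2.90, 3.50 and 3.07, and those of shARID1B.2 read 5.97, 5.25 and 4.65. So the site was called with shARID1A.2 (-1.10) and shARID1B.3 (-1.03) and not with shARID1A.4 (-0.11, FDR 0.734) or shARID1B.2 (-0.30, FDR 0.242), and the difference between the shRNAs of a gene was not tested. The combinations were lower than the single shRNAs by -1.13 (SE 0.11, FDR 7.91e-15), the largest such difference among the 16 member sites lower in that comparison.

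A tall LHX8 site 170201 bases upstream (6.88 CPM on average) fell by -0.72 after combined silencing, whereas the ARID1A and ARID1B averages were -0.11 (FDR 0.625) and -0.05 (FDR 0.854). The average of the combinations was lower there than that of the single shRNAs by -0.63 (FDR 2.35e-09). The site 37008 bases upstream read 3.16 ± 0.858 CPM in Control, and shARID1A/B.2.3 took it to 0.982 ± 0.062 and shARID1A/B.4.2 to 1.86 ± 0.139 (log2 -1.22, FDR 3.26e-09). The site 33281 bases downstream fell by -0.92 (FDR 0.000204), a call lost without Control replicate 2 (-0.70, FDR 0.027).

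**Figure D3:**
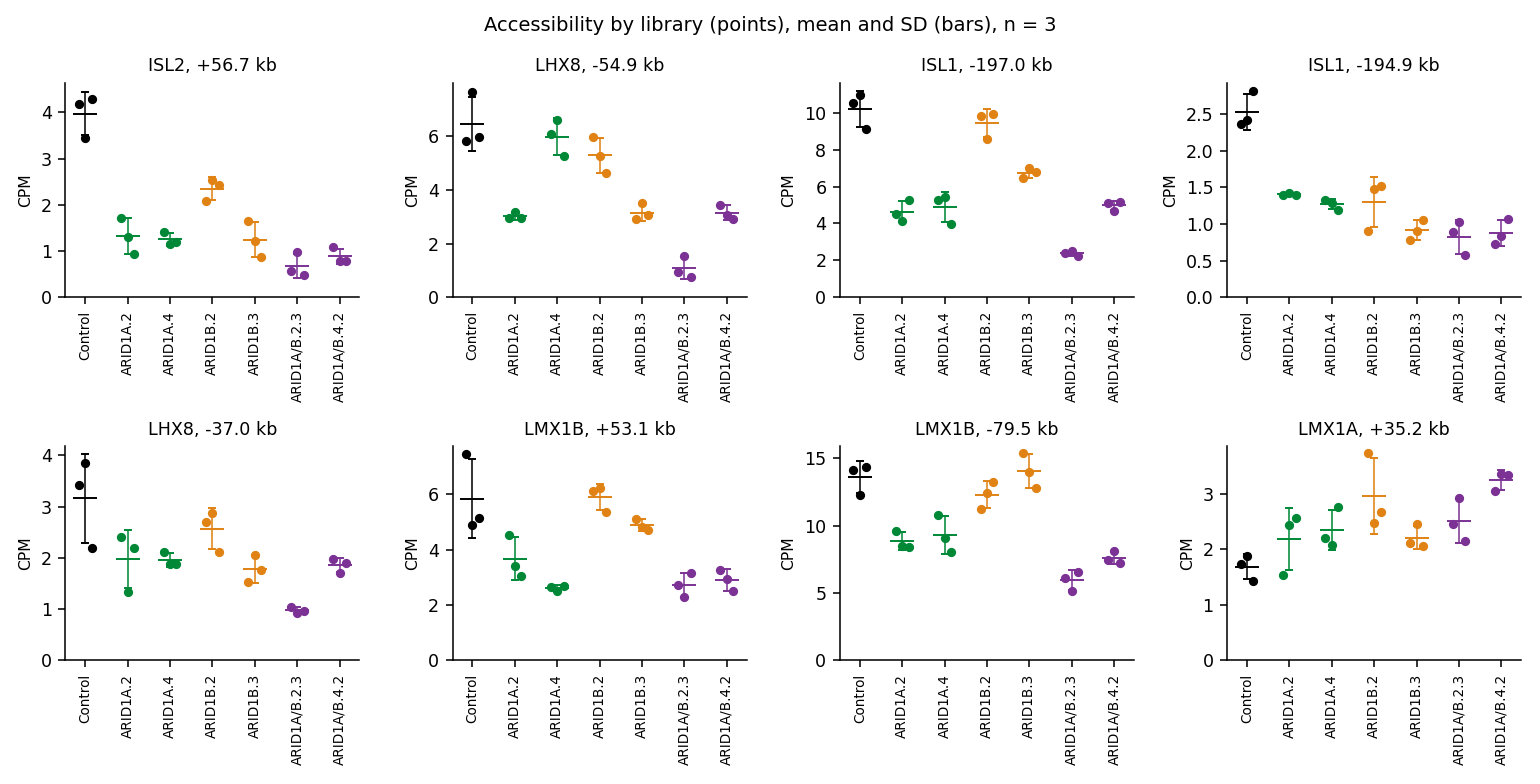
Accessibility in CPM (vertical axes, from 0) in each of the 3 libraries of the 7 groups (horizontal axes, labels without the prefix sh), with the mean and SD as bars, for the 7 sites with the largest called falls and the site with the largest called rise, among sites of at least 1 CPM on average. In the panels of falls all 6 combination libraries lie below the 3 Control libraries.

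LMX1B fell at 3 sites in intron 2 and 3 sites upstream. At 3 of these 6 sites accessibility was lower with ARID1A than with ARID1B silencing. The site in intron 2, 53119 bases downstream (chromosome 9, positions 126667169 to 126667955), read 7.46, 4.89 and 5.13 CPM in Control. It read 2.72, 2.28 and 3.17 with shARID1A/B.2.3 and 3.27, 2.95 and 2.50 with shARID1A/B.4.2 (log2 -1.05, SE 0.13, FDR 8.44e-11). The libraries of shARID1A.4 read 2.66, 2.50 and 2.69 CPM, within the range of the combinations, and those of shARID1A.2 read 4.53, 3.41 and 3.05. Those of shARID1B.2 (5.88 ± 0.477) and shARID1B.3 (4.88 ± 0.206) overlapped Control, and the ARID1A average was lower than the ARID1B average by -0.79 (SE 0.11, FDR 2.44e-08).

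The tallest closing site of the family lay 79535 bases upstream of LMX1B (positions 126534275 to 126535542). Control read 14.2, 12.3 and 14.4 CPM, shARID1A/B.2.3 read 6.14, 5.16 and 6.59, and shARID1A/B.4.2 read 7.44, 8.15 and 7.23, a log2 change of -1.02 (SE 0.10, FDR 3.13e-15). The ARID1A average was -0.58 (FDR 2.72e-06) and the ARID1B average was -0.05 (FDR 0.857), with a difference of -0.53 (SE 0.08, FDR 2.88e-07). The site 64392 bases upstream had the same order, with 12.7 ± 1.36 CPM in Control, -0.84 in the combinations, -0.64 with ARID1A and -0.12 with ARID1B silencing. The site 81906 bases upstream fell by -0.82 (FDR 1e-05). The other sites that fell were low ones in intron 2, 13951 bases downstream (0.709 CPM on average, -1.74) and 33405 bases downstream (0.543 CPM, -1.62), and the first of them fell with both ARID1A (-1.23) and ARID1B silencing (-1.54). Near the start, the site 2473 bases upstream read 9.46 ± 2.74 CPM in Control, and neither its log2 value of 0.20 (FDR 0.292) nor that of the site in intron 1, at 0.34 (FDR 0.0832), passed. The site 90967 bases downstream rose from 4.25 ± 1.19 CPM in Control to 5.87 ± 1.48 and 7.66 ± 0.582 in the combinations (log2 0.65, FDR 0.000102), and without Control replicate 2 this rise was no longer called (0.45, FDR 0.0139). By itself shARID1A/B.4.2 passed there and shARID1A/B.2.3 did not.

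LMX1A had the most sites and smaller changes. The TSS that the annotation uses is internal to the RefSeq gene, and both RefSeq promoters of LMX1A lie in the site 71117 bases upstream of it (chromosome 1, positions 165352312 to 165357139), which was the tallest. It read 20.2 ± 1.10 CPM in Control, 18.2 ± 1.71 with shARID1A/B.2.3 and 22.3 ± 0.595 with shARID1A/B.4.2, an averaged change of 0.00 (SE 0.08, FDR 0.998). The site nearest to the annotated TSS, 1271 bases upstream in intron 3, read 3.81 ± 0.105 CPM in Control, 2.58 ± 0.220 and 3.02 ± 0.303. Its fall of -0.45 (FDR 0.00696) was close to the threshold and was lost in 12 of 17 alternatives, 8 of which left out 1 library. The clearest fall of LMX1A was 33700 bases upstream, also in intron 3, at -0.74 in the combinations, -0.64 in the ARID1A average (FDR 1.92e-06) and -0.68 in the ARID1B average (FDR 4.95e-07), a site chosen after its values had been seen.

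The largest called rise of the family was in intron 3 of LMX1A, 35175 bases downstream of the annotated TSS. Control read 1.73, 1.89 and 1.44 CPM, shARID1A/B.2.3 read 2.46, 2.93 and 2.15, and shARID1A/B.4.2 read 3.05, 3.36 and 3.34, all above Control (log2 0.78, SE 0.17, FDR 0.000135). The ARID1B average also rose (0.61, FDR 0.00959), a call lost in 8 of 17 alternatives, among them DESeq2 and leaving out any 1 Control library, and the ARID1A average of 0.42 did not pass (FDR 0.127). At this intron 3 site shARID1A/B.4.2 passed by itself and shARID1A/B.2.3 did not. An intergenic site 210179 bases downstream rose by 0.55 in the combinations (FDR 0.0029) and by 0.73 with ARID1B silencing (FDR 0.000157). There shARID1A/B.2.3 passed by itself, a call lost in 5 of 14 alternatives, and shARID1A/B.4.2 did not. With scaling on promoters both rises after combined silencing were lost (0.54, FDR 0.0195, and 0.32, FDR 0.147), and that of the LMX1A site 210179 bases downstream was also lost without Control replicate 1 (0.48, FDR 0.0365) or 3 (0.48, FDR 0.0412).

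The other comparisons asked whether either subunit alone, or each combination alone, changed these sites. They share the Control libraries, so their calls are not independent. With shARID1A/B.2.3 by itself 29 member sites fell and 3 rose, beside 10.4% and 2.85% of all tested sites. With shARID1A/B.4.2 the counts were 26 and 5, beside 7.37% and 3.97%. Silencing of ARID1A alone, averaged over its shRNAs, lowered 17 sites and raised 2, beside 5.37% and 1.67%, with 5 of those lowered at LMX1A, 5 at LMX1B and 3 at LHX8. Silencing of ARID1B alone lowered 9 and raised 4, beside 3.53% and 1.39%, with 3 of those lowered at LHX8. With libraries scaled on promoters 28 sites were lower with ARID1A silencing, beside 9.55% of all sites, and 19 were lower with ARID1B silencing, beside 5.77%, where 1 was higher.

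Each shRNA by itself gave its own set of calls among the 215 tested member sites. With shARID1A.2, 13 sites were lower and 1 was higher, beside 4.54% and 0.834% of all tested sites. With shARID1A.4 the counts were 15 and 2, beside 4.17% and 2.28%. With shARID1B.2 they were 6 and 2, beside 1.84% and 1.34%, and with shARID1B.3 they were 10 and 5, beside 4.88% and 3.12%. The shARID1B.2 libraries held 21134048, 18001445 and 21634157 reads in sites and those of shARID1B.3 held 36799314, 44472230 and 23104850. Their counts of calls were therefore not made at like depth. These comparisons share the Control libraries, and the shRNAs of 1 gene were not tested against each other.

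The differences between these groups were tested directly. The average of the combinations was lower than that of the 4 single-shRNA groups at 16 member sites and higher at 1. Over all tested sites the shares were 6.85% and 0.969%. Of the 16, 5 were at LMX1B, 4 at ISL1, 4 at LHX8, 2 at ISL2 and 1 at LMX1A. ARID1A silencing was lower than ARID1B silencing at 9 member sites and higher at 2, beside 3.69% and 1.05%. Of these 9, 4 were at LMX1B and 3 at ISL1, and the 2 that were higher were the start site of LHX2 and the intron 1 site of LHX8. The map of called sites by group shows how far shRNAs of the same gene could differ. At the LHX8 site 76299 bases upstream, with 0.730 CPM on average, shARID1A.4 gave -1.46 and shARID1B.3 gave -1.91, both called, while shARID1A.2 gave -0.55 (FDR 0.220) and shARID1B.2 gave 0.14 (FDR 0.842).

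**Figure D4:**
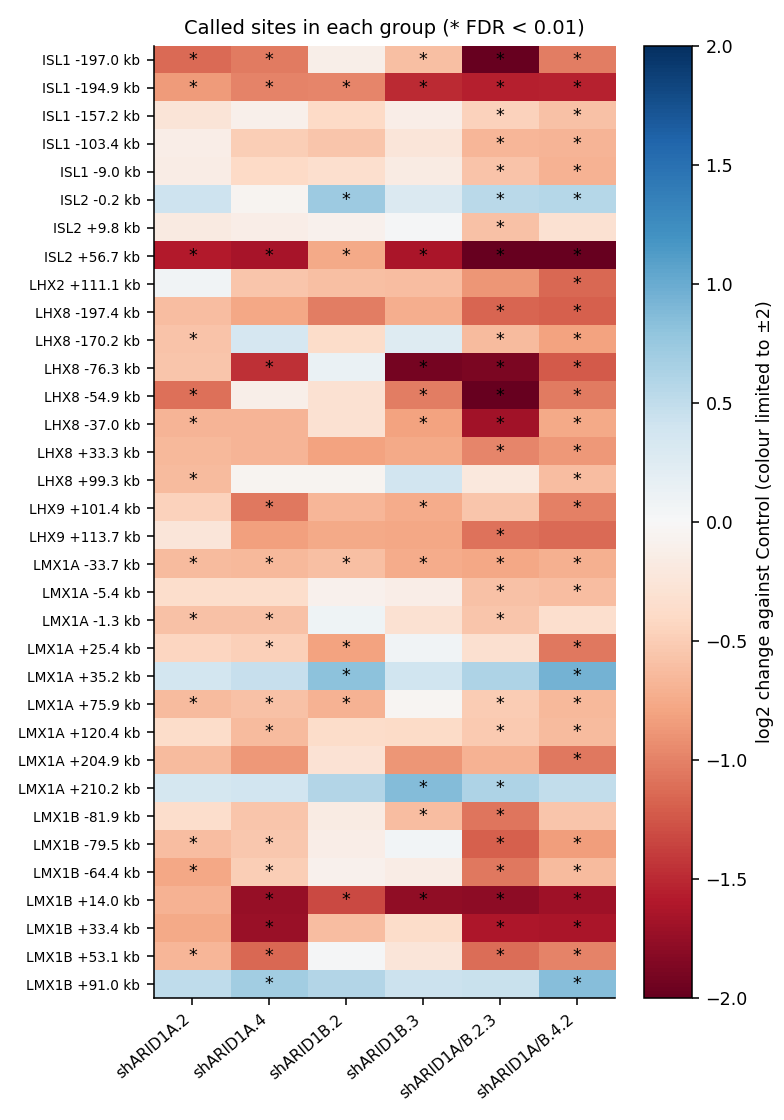
Log2 change against Control (colour, limited to 2 in either direction, red lower and blue higher) of the 34 member sites called after combined silencing (rows, gene and distance from its TSS in kb) in each of the 6 silenced groups (columns), with stars at an FDR under 0.01. The rows were chosen by their change in the combinations, at the right, so it follows from this choice that these columns are the darkest in most rows. The LMX1B sites 79535 and 64392 bases upstream are pale with both ARID1B shRNAs.

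Counts of all sites of a gene were also summed and tested over 26743 genes, of which 20.9% were lower and 15.9% higher after combined silencing. Of the 7 LIM homeobox genes 4 were lower. The sum of ISL1 holds only its 23 upstream sites, so it is not like the sums that include a start site. Its start site and gene body are summed with ISL1-DT, whose log2 change was -0.34 (SE 0.05, FDR 8.84e-06). ISL1 had a sum of 68.3 ± 3.74 CPM in Control, against 47.3 ± 2.87 with shARID1A/B.2.3 and 48.6 ± 1.14 with shARID1A/B.4.2 (log2 -0.51, SE 0.05, FDR 3.08e-08). When sites beyond 100000 bases of the TSS were left out, among them the site with its largest fall, it was still lower, by -0.26 (FDR 0.000418). LHX8 fell from 62.0 ± 6.96 to 46.2 ± 7.73 and 45.7 ± 2.35 CPM (-0.43, SE 0.08, FDR 0.000126), and ISL2 from 42.2 ± 2.62 to 33.6 ± 3.12 and 35 ± 2.07 CPM (-0.30, SE 0.06, FDR 0.000568). LMX1B fell by -0.24 (SE 0.07, FDR 0.00764).

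The sums of LHX9 (-0.16, FDR 0.0106), LMX1A (-0.14, FDR 0.108) and LHX2 (0.04, FDR 0.692) did not pass for the averaged combinations. With shARID1A/B.4.2 by itself LHX9 was lower (-0.28, FDR 0.000372), where 19.5% of all genes were lower and 15.9% higher. With shARID1A/B.2.3 its value was -0.04 (FDR 0.628), where 18.8% were lower and 11.9% higher. The calls of ISL2 and LMX1B were lost when only total counts set the depth (-0.23, FDR 0.0198, and -0.17, FDR 0.0911), and that of LMX1B in 6 of 9 fits that left out 1 library. With ARID1A silencing 14.4% of all genes were lower and 7.28% higher, and of the 7 only ISL1 passed (-0.35, SE 0.05, FDR 1.76e-05), a call lost with sites within 100000 bases (-0.17, FDR 0.0209). With ARID1B silencing 9.95% were lower and 5.44% higher, and again only ISL1 passed (-0.22, SE 0.05, FDR 0.00269), a call lost without Control replicate 1 or 2 and with sites within 100000 bases (-0.16, FDR 0.0333). For the ISL1 sum, the average of the combinations lay below that of the single shRNAs by -0.22 (SE 0.04, FDR 8.12e-05). ISL1 was the 1 gene of the 7 called in that comparison, where 12.8% of all genes were lower and 5.04% higher.

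**Figure D5:**
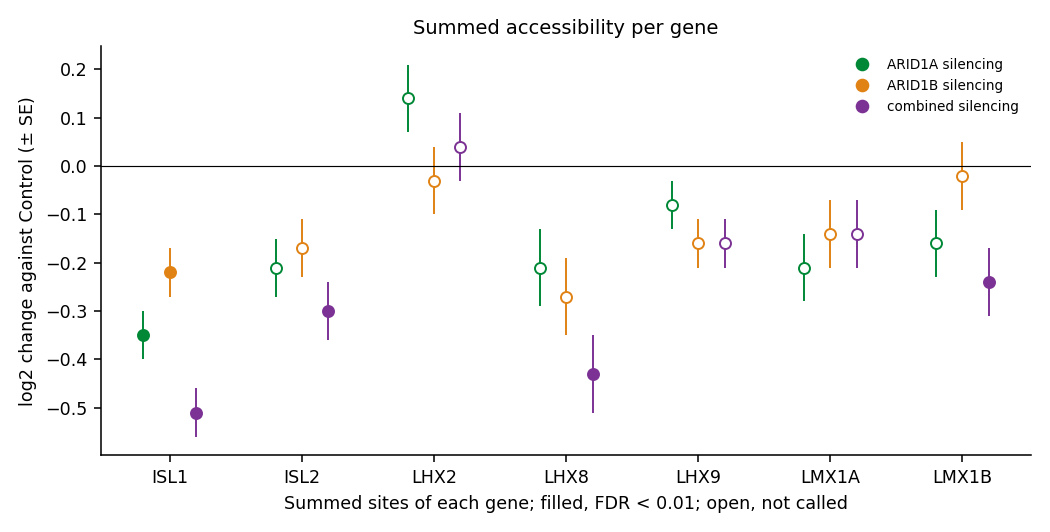
Log2 change of the summed accessibility of each gene against Control (vertical axis, bars are the SE) with ARID1A silencing, ARID1B silencing and combined silencing (colours), filled where the FDR was under 0.01. ISL1, whose sum leaves out its start site and gene body, is filled in all 3 and lies lowest, at -0.51 with combined silencing. LHX2 lies at 0.04.

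Sites of other genes of the pathway were counted in the same fit for combined silencing. Of the other LIM homeobox genes (LHX1, LHX3, LHX4, LHX5 and LHX6), 2 of 35 tested sites rose, both at LHX3, and the others were not called. Of the cofactors that bind LIM domains or act with LDB1, 36 of 162 fell and 7 rose. Most of these were at LDB2 (20 of 93), a homologue of LDB1, and at the single-stranded DNA binding proteins SSBP2 (8 of 37) and SSBP3 (5 of 16), which stabilise the LDB complex. LDB1 itself had 4 tested sites, of which 1 rose, and at SSBP4 both of the 2 tested sites rose. At RLIM, the ubiquitin ligase that targets LDB proteins, 3 of 10 fell and 1 rose.

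The LIM-only genes, whose proteins have LIM domains without a homeodomain, had 10 of 72 sites lower and 1 higher, with 5 of 33 lower at LMO1, a neuroblastoma susceptibility gene, and 4 of 8 at LMO4. These shares stand beside the 10.3% and 3.43% of all sites. The median log2 change was -0.01 for the other LIM homeobox genes, -0.14 for the cofactors and -0.01 for the LIM-only genes.

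The central 300 bases of member sites were searched for the motifs marked above. CATCTG was present in 11 of the 30 sites that fell (36.7%), in 36 of the other 185 tested member sites (19.5%) and in 23% of all 357028 tested sites that could be read. CAGCTG was present in 8 of the 30 (26.7%), in 21.6% of the other member sites and in 17.6% of all sites. The AP-1 motif was present in 5 of the 30 (16.7%), in 7.57% of the other member sites and in 10.9% of all. AGATAA was in 5 of the 30 (16.7%), in 15.1% of the other member sites and in 17.0% of all. TAATTA was in 2 of the 30 (6.67%), in 9.73% of the other member sites and in 7.87% of all. The median GC content was 45.2% in the sites that fell, 51.3% in the other member sites and 46.7% in all sites. The printed ISL1 promoter holds 1 CAGCTG and 1 AGATAA, letters that 17.9% and 10.3% of 35116 RefSeq promoters of the same length also hold. A match of letters is a description and says nothing of binding.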

How the data were processed

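ATAC-seq was measured in 21 libraries of SK-N-BE(2) cells, 7 groups of 3, collected 72 h after transduction. The deposited tables hold raw counts of reads per consensus site, which the authors made from reads aligned to GRCh38 with replicates merged to define the sites. The tables also hold the normalized signal that the authors obtained by dividing counts by a size factor per library, and log2 fold changes and p-values of the authors' own DESeq2 comparisons, neither of which was used. The deposited annotation gives each site its nearest gene and its distance in bases to the TSS, written by HOMER. Names of the aligner, peak caller and counter were not given in the sources used here. Columns with an abbreviation read here as non-silencing control were taken as Control, the 1 control group in the labels.

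The raw counts of all 367900 sites were fitted in 1 model of 7 groups with edgeR 4.0.16 (R 4.3.3), using TMM scaling, filterByExpr with a minimum count of 10 and the quasi-likelihood test, without a block for the replicate number. The filter removed 10871 sites, and 192 sites carried no gene name. P-values were adjusted by Benjamini-Hochberg over 357029 sites, and an FDR under 0.01 was called. Counts per gene were summed and tested likewise. The common biological coefficient of variation was 0.0817. Replicates of a group differed by more than counting noise (chi-square over degrees of freedom 1.08 to 2.47), though only slightly in some pairs, such as 1.08 to 1.1 with shARID1A/B.4.2. No library was merged with another, and these values do not show whether replicates were separate cultures. The fit was tested on simulated counts for combined silencing, in which 40.4% of 99 sites changed by 1 on the log2 scale and 9.18% of 98 changed by 0.5 were called (352011 sites), against 97% and 82% of gene sums (26720 genes). Few sites were changed, so the FDR was harder to pass than in the real fit, and these shares are not its power. Noise was drawn separately for each site, which averages out in a gene sum.

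The members and the lists were chosen with earlier results of these data known. Sites were named for each gene by the shortest distance to the TSS and the highest mean CPM. Over all members with at least 1 CPM the 10 largest falls and the 5 largest rises after combined silencing were named, and for ISL1 every site that was called. Other sites were chosen after their values had been seen. Alternatives were DESeq2 1.42.0 and its size factors, no filter, TMM on promoter sites, total counts, abundance-trended offsets (limma 3.58.1), only the compared groups, a replicate block, other thresholds and leaving out each library. One item and the list that holds it are not reported here.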

Additional observations from a re-analysis of the deposited data

Results flagged for a closer look

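At 7 of the named sites the change under ARID1A silencing differed from that under ARID1B silencing by the edgeR test of the difference itself, which is why they are listed. With log2 values given as ARID1A minus ARID1B, the difference was -0.79 at the LMX1B site 53119 bases downstream (ARID1A -0.90, ARID1B -0.11), -0.53 at the LMX1B site 79535 bases upstream and -0.52 at the LMX1B site 64392 bases upstream. It was -0.74 at the ISL1 site 197045 bases upstream (-1.09 and -0.35) and -0.47 at the LMX1A site nearest to its annotated start (-0.58 and -0.11, FDR 0.00203). At that ISL1 site shARID1B.3 by itself was called lower and shARID1B.2 was not. The difference was positive at the LHX2 start site, at 0.38, and at the LHX8 site in intron 1, at 0.28 (0.15 and -0.14, FDR 0.00557). The LHX8 difference was lost in 8 of 20 alternatives and that of LMX1A in 3 of 20. Over all 215 tested member sites, 9 (4.19%) were lower and 2 (0.93%) higher with ARID1A than with ARID1B silencing, beside 3.69% and 1.05% of all tested sites. These shares are no background for the 7 sites. Those were drawn from sites named for their distance, accessibility or change after combined silencing. The causes of these differences were not tested, and the depth of the knockdown under each shRNA was not measured in these libraries.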

How the results depend on the processing

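No called value of a named site changed its sign under an alternative, while the smaller counts, chiefly of rises, moved. All counts are of the 215 tested member sites and come from edgeR unless DESeq2 is named. Requiring a log2 change of at least 1 left 13 lower and 0 higher sites after combined silencing, 15 and 0 with shARID1A/B.2.3, 12 and 2 with shARID1A/B.4.2, 5 and 0 with ARID1A silencing, 3 and 0 with ARID1B silencing, 1 and 0 for combined against single silencing, and 0 and 0 for ARID1A against ARID1B, so these zeros count sites past an FDR and a size. An FDR under 0.05 gave 9 rises after combined silencing, 9 with shARID1A/B.2.3 and 12 with shARID1A/B.4.2, 17 falls with ARID1B silencing, and 25 lower and 4 higher sites for combined against single silencing. That last comparison had its 1 higher site drop to 0 with DESeq2's size factors, with DESeq2, without the filter and with promoter scaling (15, 9, 15 and 8 sites in this order at an unadjusted p under 0.05), and its falls were 9 with abundance-trended offsets. DESeq2 gave 2 rises with shARID1A/B.4.2, 1 with ARID1A silencing, and 5 falls and 2 rises with ARID1B silencing.

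Scaling on promoter sites moved the median of all sites most, by over 0.1, to -0.20 after combined silencing, -0.09 with shARID1A/B.2.3, -0.33 with shARID1A/B.4.2, -0.20 with ARID1A and -0.14 with ARID1B silencing. Falls then numbered 50 after combined silencing, 46 with shARID1A/B.4.2, 28 with ARID1A and 19 with ARID1B silencing. Rises numbered 1, 1, 0 (2 at an unadjusted p under 0.05) and 1 in the same order and 0 with shARID1A/B.2.3 (11 at an unadjusted p under 0.05), with 1 site higher for ARID1A against ARID1B. The share of falls among calls after combined silencing went from 88.2% to 98.0%, with ARID1A silencing from 89.5% to 100%, with ARID1B silencing from 69.2% to 95.0%, and with shARID1A/B.4.2 from 83.9% to 97.9%. Under this scaling shARID1A/B.4.2 lowered the tallest ISL1 site (-0.33, FDR 0.000844) and the tallest LHX9 site (-0.32, FDR 0.00173), which stood at 0.00 and 0.01 with TMM on all sites. Rises with shARID1A/B.2.3 were 6 with total counts, 9 with abundance-trended offsets and 0 with only the compared groups (13 at an unadjusted p under 0.05). Abundance-trended offsets gave 7 rises after combined silencing and 8 with shARID1A/B.4.2.

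Leaving out 1 library at a time gave 25 to 30 falls and 2 to 7 rises after combined silencing, with fewest rises without Control replicate 1 and most without shARID1A/B.2.3 replicate 3. It gave 20 to 29 and 1 to 4 with shARID1A/B.2.3, 20 to 23 and 3 to 7 with shARID1A/B.4.2, 13 to 18 and 0 to 2 with ARID1A silencing, and 5 to 11 and 2 to 5 with ARID1B silencing, where the fewest falls came without Control replicate 1. Combined against single silencing gave 12 to 17 lower and 0 to 1 higher sites, and ARID1A against ARID1B gave 6 to 9 and 1 to 2. Of the 7 gene sums, 3 to 5 were lower after combined silencing, 1 with ARID1A and 0 to 2 with ARID1B silencing.

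Among gene sums, an FDR under 0.05 gave 4 lower with ARID1A and 4 with ARID1B silencing, total counts left 2 lower after combined silencing, and with sites within 100000 bases 0 were lower with ARID1B silencing (5 at an unadjusted p under 0.05). A replicate block gave 2 and 3 lower sums with ARID1A and ARID1B silencing, and for sites 32 falls and 4 rises after combined silencing. The labels share replicate numbers between groups without naming a shared culture. Deviations from the group means were correlated between libraries of different groups. With the same number they ran from -0.506 to 0.681 (median 0.044) over 63 pairs, 27 of them above 0.1. With different numbers they ran from -0.559 to 0.478 (median -0.0253) over 126 pairs, 37 of them above 0.1. On average 11 of 21 libraries correlated best with their own number. These values do not settle whether the numbers pair the samples, and the main fit was made without pairing. All 119 called values of named sites and gene sums kept their call with the block.

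Of these 119 values, DESeq2 kept 96, DESeq2's size factors 116, total counts 113 and abundance-trended offsets 104, and in fits without 1 library 835 of 990 calls were kept. Of the 10 largest called falls among sites of at least 1 CPM, those other than LHX8 33281 bases downstream kept their call after combined silencing in each alternative run. Sites under 1 CPM with large falls, at LMX1B, LHX8, LHX9 and LHX2, were not followed one by one in these alternatives. In simulated counts 40.4% of sites changed by 1 on the log2 scale were called, so an uncalled site is not shown to be unchanged. Those sites were drawn over all depths and not split by depth, so the share is not one for low sites. They were also far fewer than the sites called here, so the share is not the power of the real fit.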
